A study of Mus musculus with 2 samples.

Results

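Interferon-responding cells are described here among sorted thymic T cells of the regulatory T cell (Treg) lineage. A cell was counted as a member when its summed UMIs of Isg15, Ifit1, Ifit3, Rsad2 and Usp18 reached 6 and it had 0 UMIs of the mitosis genes Mki67 and Top2a. A UMI is a molecular tag that marks 1 captured transcript. Of 4798 barcodes, 4144 cells passed the filters on genes, mitochondrial UMIs, hashtag and depth, and 632 of these were members. Members came as 225 Lta-/- cells and 407 Foxp3eGFP cells. The cells they are set against, called reference cells, had 0 UMIs of the 5 genes and numbered 1468, of which 952 were Lta-/- and 516 were Foxp3eGFP. Another 1871 cells had 1 to 5 such UMIs, and 173 cells reached 6 but had Mki67 or Top2a UMIs. Members and reference cells were thus selected on measured values of these 5 genes, which are given as a description and support nothing.

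The cells came from the thymus of 2 C57BL/6 mice, a Foxp3eGFP mouse that also lacked Lta (written Lta-/- here) and a Foxp3eGFP mouse with Lta intact. Foxp3eGFP is a reporter allele in which cells that transcribe Foxp3 fluoresce, and Lta encodes lymphotoxin alpha; both mice carried the reporter, and the labels state neither age nor sex. Live CD4+ CD8- CCR6- CD3e+ cells positive for CD25, the reporter or both were sorted after depletion of CD8+ and CD11c+ cells, 20000 per genotype, and loaded together in 1 capture with a hashtag antibody per mouse. With 1 mouse per genotype there is no replicate, so no test was possible, and all intervals are 95% counting intervals that leave out the variation between cells and between mice. Lta itself had 70 UMIs in 2082 Lta-/- cells, against 485 UMIs in 2062 Foxp3eGFP cells, and the genotype of a cell was read from the hashtag's name in the matrix. The submitters' antibody numbers run the other way from the barcode numbers in those names, so the low Lta count is the check on this reading. Median depth was 5789.5 UMIs per member and 5444 per reference cell, and members carried 4035400 UMIs in all, against 9627501 in reference cells.

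Type I interferons bind a receptor made of Ifnar1 and Ifnar2, whose kinases Jak1 and Tyk2 activate transcription factors, among them Stat2. Stat2 and Irf9 belong to a complex that binds the interferon-stimulated response element in the promoters of antiviral genes; interferon gamma acts through a separate receptor. In the thymus, type I interferons are known to be made constitutively by medullary epithelial cells, and developing T cells respond to them late in their maturation.

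The promoters of the genes that define the members are shown because this response element can be read in them. The 160 bases before the transcription start are given 5′ to 3′ on the gene's strand, from RefSeq (GRCm38.p6), with matches to GAAANNGAAA on either strand in capitals; on the opposite strand the match reads TTTCNNTTTC.
Isg15 (chr4:156200819-156200978, minus strand): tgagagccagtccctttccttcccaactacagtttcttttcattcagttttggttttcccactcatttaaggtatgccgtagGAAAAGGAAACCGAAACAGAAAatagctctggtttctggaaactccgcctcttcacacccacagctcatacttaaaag
Ifit1 (chr19:34640729-34640888, plus strand): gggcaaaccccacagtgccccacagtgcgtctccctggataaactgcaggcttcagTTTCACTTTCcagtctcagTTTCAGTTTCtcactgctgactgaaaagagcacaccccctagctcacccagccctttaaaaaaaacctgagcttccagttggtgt
Ifit3 (chr19:34583369-34583528, plus strand): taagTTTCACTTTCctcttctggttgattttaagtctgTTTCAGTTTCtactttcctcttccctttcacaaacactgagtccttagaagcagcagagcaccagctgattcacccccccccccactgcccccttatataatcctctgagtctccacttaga
Rsad2 (chr12:26456453-26456612, minus strand): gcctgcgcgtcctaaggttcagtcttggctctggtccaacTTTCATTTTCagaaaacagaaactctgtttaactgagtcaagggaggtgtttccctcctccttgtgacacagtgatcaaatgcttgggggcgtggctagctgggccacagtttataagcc

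Isg15 held 3 overlapping matches within 78 bases of its start, Ifit1 and Ifit3 held 2 each and Rsad2 held 1. The fifth gene is Usp18. In windows of 250 bases before to 50 after the start, 3.44% of the 32851 promoters in the table held a match. By gene, the figure was 3.95% of the 7616 genes with at least 100 UMIs and a promoter in the table. Of the 74 further interferon genes described below, 62 had a promoter in the table and 24 of these (38.7%) held a match. Among those at least 4-fold higher in members the count was 13 of 24, and among those 1.5-fold to 4-fold higher it was 10 of 34. The interferon gamma GTPase list held a match in 10 of 11 promoters, the MHC class I list in 5 of 16 and the Treg core list in 0 of 12. A match is a description of letters in this window and not a binding site.

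The 5 genes that chose the members were spread unevenly over them. Isg15, a ubiquitin-like modifier, had a UMI in 96.4% of members and made up 47.1% of their 5-gene UMIs. Ifit1, an RNA-binding antiviral protein, had a UMI in 85.8% of members and gave 27.3% of those UMIs. Ifit3, its partner, was found in 56.6%, Usp18, the protease that removes ISG15 and damps the receptor, in 53.0%, and Rsad2, the antiviral enzyme viperin, in 32.8%. All 5 genes were found together in 72 members (11.4%), 4 in 180, 3 in 241, 2 in 109 and 1 in 30. The 5-gene sum had a median of 10 UMIs and a highest value of 66. At the edge, 119 members had exactly 6 UMIs and 122 cells without Mki67 and Top2a had 5. Levels below are in CPM, UMIs of the gene per 1000000 UMIs of the pooled cells, and the further interferon genes summed to 16181 CPM in the cells at 6 UMIs and 15818 CPM in the cells at 5.

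Nearly all members carried transcripts of T cells. A UMI of Cd3e, Cd3d, Cd3g or Trac was found in 99.8% of members and 99.7% of reference cells, Cd4 in 61.2% and 61.8%, and Cd8a in 2.22% and 4.02%. The name interferon-responding rests on genes outside the rule, as follows.

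Most interferon-induced genes other than the 5 were higher in members. The lists hold 81 such genes, of which 79 are in the matrix and 74 had at least 100 UMIs over all kept cells; 69 of these were at least 1.5-fold higher in members, 68 of them in each mouse, and 0 were lower. Over all 9611 genes at that depth, 3.51% were 1.5-fold higher in members and 2.32% in each mouse, with 9.01% lower and 5.74% lower in each mouse. Members and reference cells differ in mouse, since 64.4% of members and 35.1% of reference cells were Foxp3eGFP. Values within each mouse are therefore given for some lists and genes. Other ratios below are pooled only, so the difference in mouse stays in them. The median log2 ratio of the further interferon genes was 1.72, against -0.08 over all genes. Their UMIs summed to 19935 CPM in Lta-/- members and 19697 CPM in Foxp3eGFP members, against 7762 CPM in Lta-/- reference cells and 7928 CPM in Foxp3eGFP reference cells. That is a log2 ratio of 1.34 (1.32 to 1.35), or 1.36 within the Lta-/- mouse and 1.31 within the Foxp3eGFP mouse. These genes move with the 5 genes of the rule in the same cells and libraries, so the counts describe the members and are no independent test of the label.

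Antiviral effectors were higher for 37 of 39 genes. Ifit3b, a paralogue beside Ifit3 on chromosome 19 (34607530 to 34613403), had 72.4 CPM in Lta-/- members and 70.4 CPM in Foxp3eGFP members, against 0.653 CPM and 1.14 CPM in the reference cells of the same mice. Its log2 ratio was 6.42, but it is nearly identical in sequence to Ifit3, so the authors' counting may have divided reads between them, and reference cells were chosen to have 0 UMIs of Ifit3. Oasl2, an oligoadenylate synthetase-like protein, had a log2 ratio of 3.68 (3.29 to 4.08) and Ifi44 one of 3.64 (3.15 to 4.16). Oasl2 stood at 84.5 CPM in Lta-/- members and 85.3 CPM in Foxp3eGFP members, against 5.06 CPM and 9.42 CPM in their reference cells. The groups of members therefore had close levels in the mice, and each lay far above its own reference cells. The exonuclease gene Isg20 (log2 2.41), the apoptosis regulator Xaf1 (2.39) and Rtp4 (2.44) were also among the 15 largest ratios. Ifi27l2a had the most UMIs of all these genes, 15166 in members, at a log2 ratio of 1.21. Ly6e (0.39) and Zc3hav1 (0.47) stayed under 1.5-fold.

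Nucleic acid sensors, which detect viral RNA or DNA, were higher for 13 of 14 genes. The RNA helicases Ifih1 (MDA5) and Dhx58 (LGP2) had log2 ratios of 2.74 (2.43 to 3.05) and 2.67 (2.30 to 3.05), and Ddx58 (RIG-I) had 1.74. Ifih1 stood at 90.8 CPM in Lta-/- members and 81.1 CPM in Foxp3eGFP members, against 11.9 CPM and 14.0 CPM in their reference cells. The HIN-domain genes Ifi213 (2.39), Ifi206 (2.22) and Ifi208 (2.15), the Z-nucleic acid sensor Zbp1 (2.21) and the RNA-dependent kinase Eif2ak2 (2.21) were likewise higher. Cgas, the DNA sensor, was at -0.06 (-0.76 to 0.61), and at 1.45 when only reference cells without Mki67 and Top2a were used.

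Transcription factors and their cofactors were higher for 14 of 15 genes. Irf7, the amplifier of type I interferon transcription, had a log2 ratio of 2.48 (2.31 to 2.65), at 244 CPM in Lta-/- members and 231 CPM in Foxp3eGFP members, against 36.9 CPM and 51.7 CPM in their reference cells. Stat2 had 2.19 (1.93 to 2.46), with 84.5 CPM in members and 18.5 CPM in reference cells. Irf9, its partner in the complex, was at 0.92 and Irf1 at 0.74. Irf2, which competes with Irf1, was at 0.46. Of the genes of ISG15 conjugation and feedback, 5 of 6 were higher, among them the ligase Herc6 (1.73), the feedback inhibitor Socs1 (0.91) and the activating enzyme Uba7 (0.89); Socs3 was at 0.47.

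Targets usually tied to interferon gamma were higher as well. All 18 measured genes of this list were at least 1.5-fold higher, 16 of them in each mouse, with a summed log2 ratio of 1.86 (1.81 to 1.91). The immunity-related GTPase Iigp1 had 263 CPM in Lta-/- members and 259 CPM in Foxp3eGFP members, against 27.6 CPM and 31.1 CPM in their reference cells, a log2 ratio of 3.17 (2.98 to 3.37). Irgm1 (2.17) and the guanylate-binding proteins Gbp6 (2.19) and Gbp7 (2.02) were 4-fold higher or more. Many of these genes also respond to type I interferon, so the list does not tell the ligands apart. In MHC class I presentation 8 of 18 genes were higher, 7 in each mouse, with a summed log2 ratio of 0.44 (0.42 to 0.45); H2-T23 (0.99), Nlrc5 (0.96), the activator of these genes, and Tap1 (0.92), the peptide transporter, led it. The heavy chains H2-K1 (0.36) and H2-D1 (0.28) stayed below 1.5-fold.

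The receptors and the ligands did not follow. None of the 8 measured receptor and kinase genes passed 1.5-fold either way, and Ifnar1 was at 0.33 (0.14 to 0.52), Ifnar2 at 0.15, Ifngr1 at -0.04, Jak1 at 0.13 and Tyk2 at 0.03. All 20 interferon ligand genes in the matrix had 0 UMIs in members, and 3 UMIs, the limit that a count of 0 allows, is 0.743 CPM in 4035400 UMIs. Ifng had 15 UMIs in reference cells (1.56 CPM). Which cells made the ligand is not shown by these data.

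**Figure D1:**
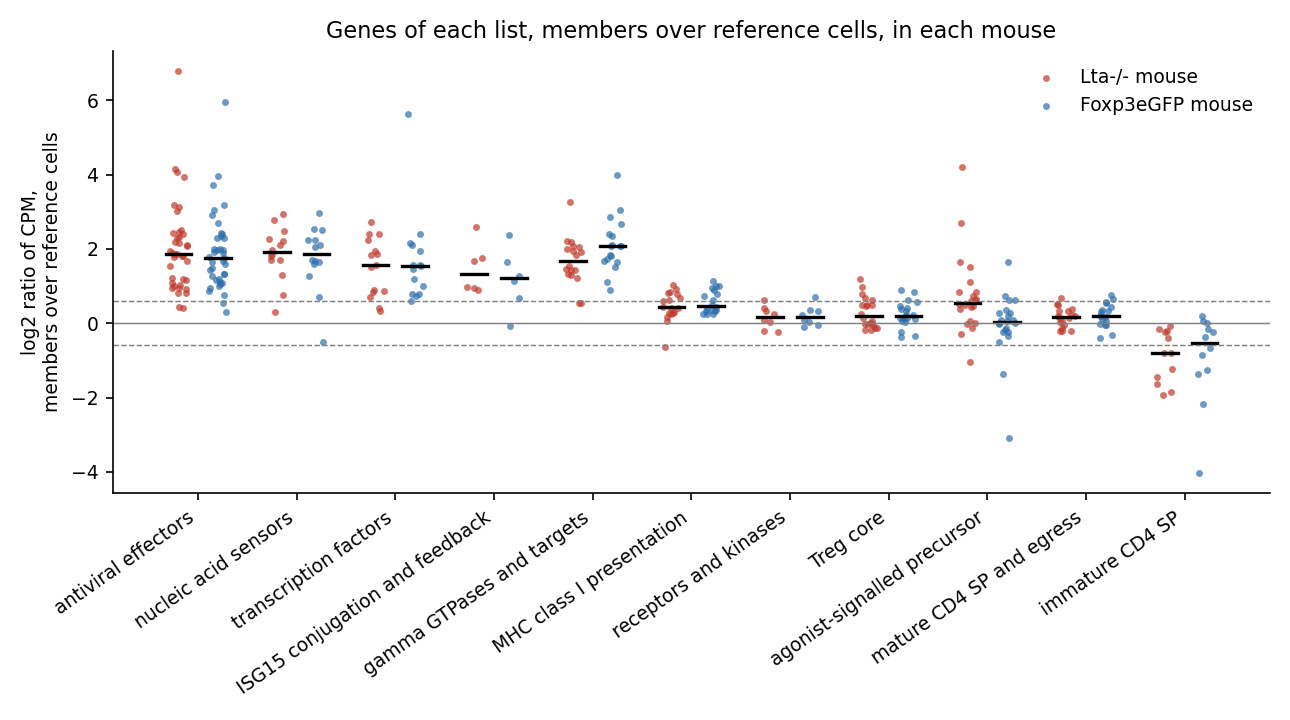
Each point is 1 gene with at least 100 UMIs, placed by its log2 ratio of CPM, members over reference cells, in the Lta-/- mouse (red) and the Foxp3eGFP mouse (blue); black bars are medians and dashed lines mark 1.5-fold. The 5 interferon columns on the left lie above the upper line for nearly all genes in each mouse, while receptors, Treg core and mature CD4 genes lie around 0 and the immature CD4 list lies below it.

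Along the 5-gene sum the other interferon genes were graded and showed no gap at the threshold. In cells without Mki67 and Top2a they stood at 8219 CPM in the 1270 cells with 0 UMIs, 11105 CPM at 1 to 2 UMIs, 14757 CPM at 3 to 5, 16789 CPM at 6 to 9 and 22505 CPM at 10 or more. The interferon gamma list stood at 589, 860, 1239, 1521 and 2350 CPM over the same steps. MHC class I genes stood at 7291, 8336, 9187, 9375 and 9823 CPM, a smaller change in proportion. At 0 UMIs the further interferon genes stood at 7946 CPM (7866 to 8026) in Lta-/- cells and 8719 CPM (8606 to 8834) in Foxp3eGFP cells, and at 1 to 2 UMIs at 10778 CPM and 11432 CPM, with intervals apart. From 3 UMIs up the intervals of the mice overlapped, with 22743 CPM in Lta-/- cells and 22378 CPM in Foxp3eGFP cells at 10 or more UMIs. Median depth was 5212.5 UMIs at the lowest step and 5809.5 at the highest, and a sum of UMIs grows with depth.

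**Figure D2:**
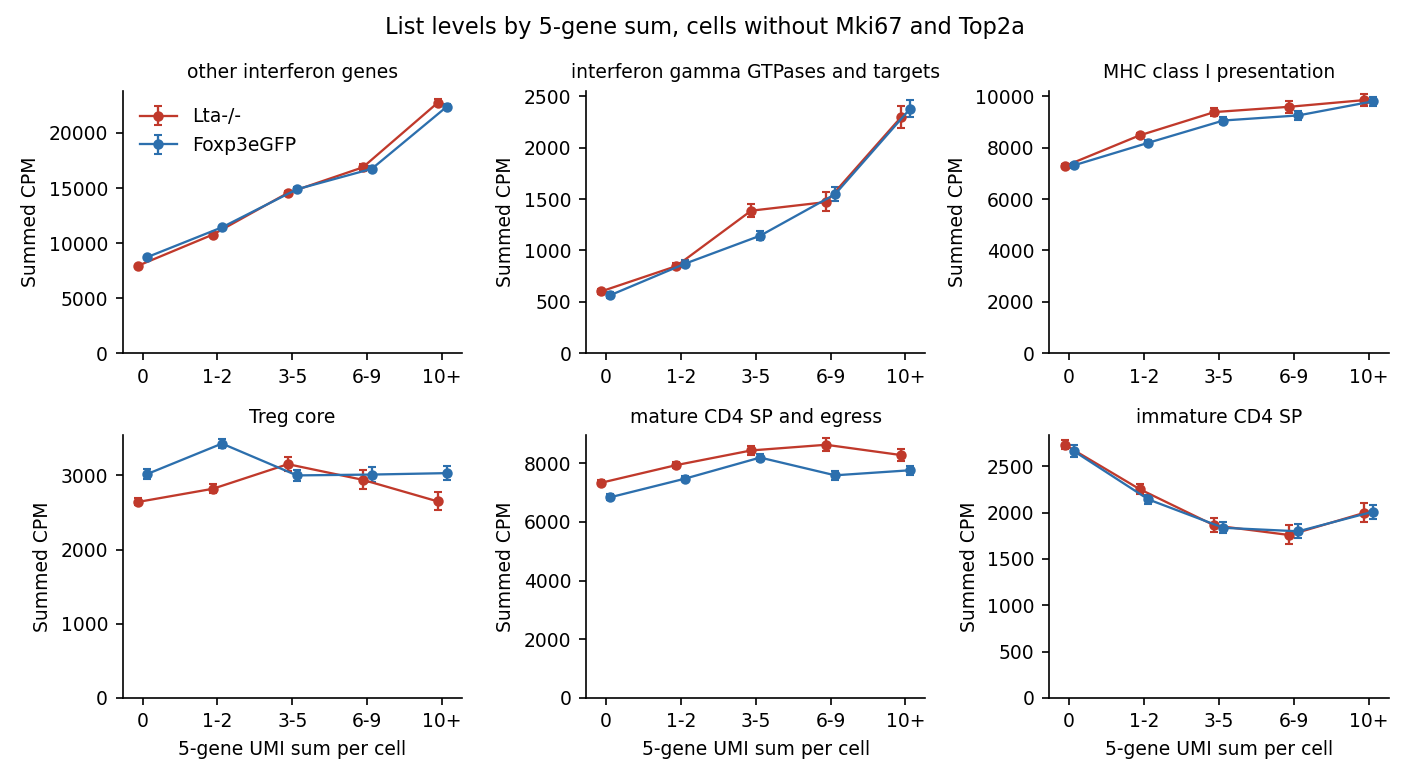
Summed CPM of 6 gene lists (y axis, from 0) against the 5-gene UMI sum per cell (x axis) in cells without Mki67 and Top2a, for the Lta-/- mouse (red) and the Foxp3eGFP mouse (blue), with 95% Poisson intervals. Interferon lists climb over the steps in each mouse, and Treg core genes stay between 2774 and 3124 CPM over both mice. Immature CD4 genes are at 2709, 2198, 1846, 1784 and 2005 CPM over both mice, so most of the fall lies below the threshold of 6 UMIs. Mature CD4 genes are at 8291 CPM at 3 to 5 UMIs and 7943 CPM at 10 or more over both mice.

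Which state of the Treg lineage the members held was read from clusters made without any interferon or MHC class I list gene, Foxp3 or Il2ra. Members were found in 8 clusters with at least 30 members each; since the interferon genes were left out of the clustering, it could hardly set them apart. The most common was cluster 0, with 148 members (23.4%, 20.2 to 26.9), against 13.4% of reference cells (11.7 to 15.3). It is mature Treg-like, led by Gsta4, Gpr83, Mcub and Ctla4, with 16 of 20 Treg core genes 1.5-fold higher than in other cells, and 53.8% of its cells had a Foxp3 UMI. Of the mature CD4 list 10 of 18 genes were also higher there, and of the IL-2 and STAT5 list 11 of 15. Treg core genes other than Foxp3 and Il2ra were open to the clustering, so such counts describe a cluster and do not test its name. The share of all genes raised in each cluster was not computed. For the share of members over that of reference cells in cluster 0, the log2 ratio was 0.80 (0.49 to 1.12), at 0.81 in the Lta-/- mouse and 0.73 in the Foxp3eGFP mouse.

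The remaining members were spread over the other clusters. Clusters 1 and 4 were mature CD4 single-positive-like, led by Neurl3 and by Igfbp4. They held 17.4% and 13.3% of members, against 14.4% and 9.95% of reference cells. Of the mature CD4 list 11 of 18 genes were 1.5-fold higher than in other cells in cluster 1 and 7 in cluster 4. Cluster 0 had 10 and cluster 3 had 8, so this list does not set cluster 4 apart from them. Cluster 2, led by Eno3 and the agonist-induced receptor gene Tnfrsf9 and left unnamed, held 16.3%, against 14.4%. Cluster 8, led by the immediate-early genes Egr3 and Nr4a3 and agonist-signalled precursor-like with 20 of 22 genes of that list, held 4.91%, against 2.38%. It also had 6 of 10 dissociation stress genes and 9 of 20 Treg core genes 1.5-fold higher than other cells, and its Treg core level, 4846 CPM, was next to the 4847 CPM of cluster 0. Clusters 5, 3 and 6 held a smaller share of members than of reference cells. Cluster 5, immature CD4 single-positive-like and led by Ccr9, held 4.75% (3.23 to 6.71) of members and 12.6% (10.9 to 14.4) of reference cells. Treg core genes stood at only 989 CPM in cluster 5 and 632 CPM in cluster 4, so the place of these clusters in the Treg lineage rests on the sort gate. Cluster 3, effector and recirculating Treg-like and led by Ccl5, Cxcr3 and Maf with 16 of 20 Treg core genes, held 11.2%, against 15.9%. Cluster 6, led by Ccl4 and Xcl1 and agonist-signalled precursor-like, held 7.28%, against 9.401%. Among the genes leading cluster 1 were Ifi214 and Apol7e, which respond to interferon and were on no list, so that cluster was not wholly free of the response.

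**Figure D3:**
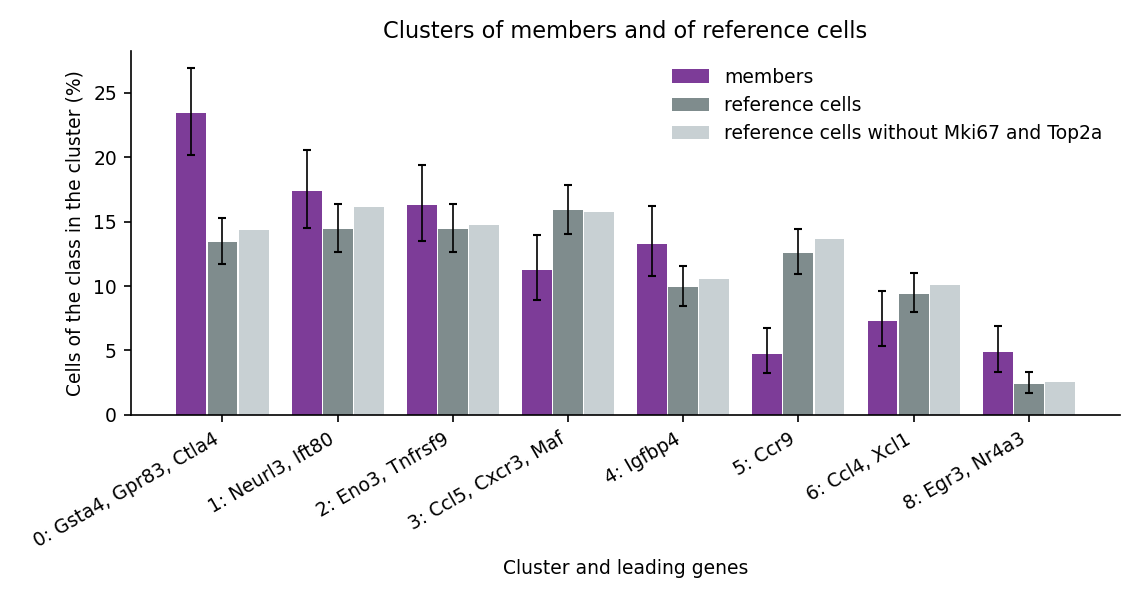
Share of members (purple), of reference cells (dark grey) and of reference cells without Mki67 and Top2a (light grey) found in each of the 8 clusters with at least 30 members; bars on the first pair are 95% Clopper-Pearson intervals. Cluster 0 holds 23.4% of members and 13.4% of reference cells, and cluster 5 holds 4.75% and 12.6%.

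Read the other way, the share of a cluster's cells that were members was 23.8% (16.8 to 32.1) in cluster 8, 20.4% in cluster 0, 19.1% in cluster 4, 17.1% in cluster 1, 16.8% in cluster 2, 15.3% in cluster 6, 12.2% in cluster 3 and 8.62% (5.89 to 12.1) in cluster 5. Neighbours in this order overlapped in their intervals. Of the 253 cells of the proliferating cluster 7, 1 was a member, which the rule brings about. A mixed cluster of plasma cell, macrophage and B cell transcripts held 5 members and the Gzmc-led innate-like T cell cluster held 3.

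Over both mice, members carried the gate transcripts more often. A Foxp3 UMI was found in 22.9% (19.7 to 26.4) of members and 16.4% (14.6 to 18.4) of reference cells. An Il2ra UMI, for CD25, was found in 27.2% (23.8 to 30.9) and 18.9% (16.9 to 21.0), and both in 12.0% and 6.403%. Neither was found in 61.9% of members and 71.1% of reference cells. In the Lta-/- mouse Foxp3 was found in 20.4% of members and 16.6% of reference cells, and in the Foxp3eGFP mouse in 24.3% and 16.1%. Il2ra was found in 26.7% and 16.5% in the Lta-/- mouse, and in 27.5% and 23.3% in the Foxp3eGFP mouse. With the same members and reference cells thinned to 3000 UMIs, the shares were 15.3% and 12.3% for Foxp3, and 20.6% and 12.7% for Il2ra. The thinned Foxp3 intervals overlapped (12.6 to 18.4 and 10.7 to 14.1). The log2 ratio of the Foxp3 share was 0.30 (-0.21 to 0.78) within the Lta-/- mouse and 0.60 (0.16 to 1.04) within the Foxp3eGFP mouse, and that of Il2ra 0.69 (0.24 to 1.13) and 0.24 (-0.14 to 0.63), so 1 of each pair of intervals holds 0. In the Ccr9-led cluster 5, at a median of 5455.5 UMIs, 0.862% of cells had a Foxp3 UMI and 1.72% an Il2ra UMI. In the Igfbp4-led cluster 4, at a median of 6026 UMIs, the shares were 1.36% and 2.27%. Whether free RNA gives levels like these was not tested. In the Gzmc-led innate-like T cell cluster, at a median of 9481.5 UMIs, 0 of 40 cells (0 to 8.81%) had a UMI of either gene. Cells were sorted on protein, so the lack of both transcripts does not by itself place a cell outside the gate. The purity of the sort was not measured here.

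Within a cluster the difference in Foxp3 level was not resolved. Its log2 ratio, members over reference cells, was 0.09 (-0.22 to 0.40) in cluster 0, 0.04 (-0.66 to 0.72) in cluster 1 and 0.05 (-0.54 to 0.62) in cluster 3. It was -0.70 in cluster 2, 1.38 in cluster 4, 1.13 (-0.39 to 2.58) in cluster 6 and 0.63 (-0.50 to 1.82) in cluster 8, and each of these 7 intervals holds 0; cluster 5 members had 0 UMIs. With reference cells weighted to the members' clusters, the log2 ratio of the share with Foxp3 was 0.13, against 0.48 without weights, while that of Il2ra was 0.41, against 0.53. Il2ra in cluster 0 was at 0.63 and stood at 280 CPM in members there.

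Treg core genes as a list were close to level. Of 20 measured genes 6 were higher in members and 2 of these in each mouse, and the summed log2 ratio was 0.23 (0.20 to 0.27). The 6 were Il2ra (0.83), Rgs1 (0.79), Foxp3 (0.70), Lrrc32 (0.69), which presents TGF-beta, Gpr83 (0.63) and the coinhibitory receptor gene Ctla4 (0.60); Lrrc32 and Il2ra were the ones past 1.5-fold in each mouse. Ikzf2, for Helios, was at 0.07, Izumo1r at -0.00, Nrp1 at -0.36 and Tnfrsf18, for GITR, at 0.38. Reference cells included 198 with Mki67 or Top2a, of which members had none by rule. Against the 1270 others, 2 of 20 genes stayed past 1.5-fold, Rgs1 (0.64) and Il2ra (0.63), 0 of them in each mouse, and the sum came to 0.08. Weighted to the members' clusters it came to 0.01.

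Immature thymocyte genes were lower in members. Of the immature CD4 single-positive list 7 of 12 were lower, 6 in each mouse, with a summed log2 ratio of -0.41 (-0.45 to -0.37), and against reference cells without Mki67 and Top2a 7 were lower, all of them in each mouse. Itm2a, a gene of positive selection, had 496 CPM in members and 858 CPM in reference cells (log2 -0.79). Ccr9, a receptor for the thymic chemokine CCL25, had 84.5 CPM and 131 CPM (-0.63), and Cd24a, a surface marker lost on maturation, had 16.4 CPM and 36.3 CPM (-1.15). Tox (0.00), Themis (-0.03) and Satb1 (-0.17) did not pass 1.5-fold. Of the double-positive thymocyte list 5 of 7 were lower, with Cd8b1 at -0.22 and Cd1d1 at 0.05. In cells without Mki67 and Top2a, the immature CD4 list stood at 2709 CPM at 0 UMIs of the 5 genes and 2198 CPM at 1 to 2. It stood at 1846 CPM at 3 to 5, 1784 CPM at 6 to 9 and 2005 CPM at 10 or more. Low levels of this list were thus not particular to members.

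Mature CD4 and egress genes were only slightly above reference. Of 18 genes 1 passed 1.5-fold, and the summed log2 ratio was 0.19 (0.17 to 0.21). S1pr1, the egress receptor, was at 0.39, Klf2, which drives it, at 0.34, Ccr7 at 0.15 and Il7r at -0.44. In the IL-2 and STAT5 list 2 of 15 were higher, the cyclin gene Ccnd2 (0.79) and Socs1. In the effector and recirculating Treg list 5 of 15 were lower and 0 of these in each mouse. S100a6 had a log2 ratio of -1.498 in the Lta-/- mouse and 0.24 in the Foxp3eGFP mouse, and S100a4 one of -1.497 and 0.29. Few cells carry these values: in Foxp3eGFP members 43 of 152 UMIs of S100a6 and 41 of 131 of S100a4 lay in 1 cell, and in Lta-/- members 22 of 50 UMIs of S100a6 did; whether the mice differ in this was not tested.

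Agonist-induced genes differed between the mice. Of 22 genes of the agonist-signalled precursor list, 6 were higher in members and 1 was lower over both mice. Within each mouse 4 passed 1.5-fold, Nr4a2, Egr3, Mir155hg and Cd69, and 2 did against reference cells without Mki67 and Top2a, Nr4a2 and Egr3. Nr4a2 was found in 7 members of each mouse, with 19 of 39 UMIs in 1 Lta-/- cell and 14 of 26 in 1 Foxp3eGFP cell. Nr4a3 stood at 63.9 CPM in Lta-/- members and 34.3 CPM in Foxp3eGFP members, against 22.2 CPM and 26.6 CPM in their reference cells, and Nr4a1 at 111 CPM and 73.9 CPM, against 51.3 CPM and 61.1 CPM. The list's log2 ratio was 0.39 in the Lta-/- mouse and -0.02 in the Foxp3eGFP mouse. Dissociation stress genes moved with it, at 0.07 in the Lta-/- mouse and -0.21 in the Foxp3eGFP mouse, and their part in it was not tested. Cd69, an early activation marker, was under 1.5-fold over both mice (0.57) but not within the Lta-/- mouse (0.84) or the Foxp3eGFP mouse (0.63), since the mice have different weights in members and reference cells. Tnfrsf9 was at -0.09. Xcl1, a chemokine, was at -0.78. Ccl4 had 97 UMIs in members, 81 of them in 1 cell.

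Among the 15 largest ratios that held in each mouse, 12 were genes of the interferon lists. The others were Ifitm3, an antiviral membrane protein (3.09; 87 members, with 77 of 318 UMIs in 1 cell), the helicase gene Ddx60 (2.33) and Lyz2, a lysozyme of macrophages (2.32), for which 350 of 412 UMIs lay in 1 cell. Of all 223 genes higher in each mouse, 91 were on an interferon or MHC class I list. In the other direction 14 of the 15 largest ratios were cell-cycle or histone genes such as Nusap1 (-6.21), Pclaf (-5.13), Birc5 (-4.64) and Rrm2 (-4.62), as the rule removes dividing cells from members only. Against reference cells without Mki67 and Top2a these 14 were no longer among the lowest, and the values were 0.61 for Nusap1, -0.16 for Pclaf, 0.97 for Birc5 and 1.19 for Rrm2. In that comparison 3.74% of genes were higher and 5.00% lower, with 2.31% and 2.16% in each mouse. Jchain, of plasma cells, was the remaining gene, and 699 of its 720 UMIs in reference cells lay in 1 Foxp3eGFP cell. Genes lower against the reference cells without Mki67 and Top2a, in each mouse, were Nrgn (-1.93), Itm2a (-0.91), Ccr9 (-0.81), Dctpp1 (-0.76), Mettl1 (-0.73) and Ybx3 (-0.59); this set was chosen after the values were seen.

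As a summed list, the further interferon genes were higher in members in each of the 8 clusters with at least 30 members. Of the 74 genes, 43 were at least 1.5-fold higher in all 8 clusters and 15 in all but 1 or 2, while Irf1 and Zc3hav1 passed in 2 clusters each. The share of all genes that pass in every cluster was not computed. Within a cluster, members and reference cells still differ by the rule, so these counts describe the members only. The list's level in members was 24723 CPM in cluster 3, 24025 CPM in cluster 1, 23433 CPM in cluster 0, 22263 CPM in cluster 8 and 21012 CPM in cluster 4. It was 14685 CPM in cluster 2, 12545 CPM in cluster 5 and 11702 CPM in cluster 6. Reference cells kept a like order, with 12181 CPM in cluster 3, 11069 CPM in cluster 0, 4445 CPM in cluster 5 and 4058 CPM in cluster 6. The log2 ratio ran largely the other way, at 1.02 in cluster 3, 1.08 in cluster 0, 1.497 in cluster 5 and 1.53 in cluster 6.

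Single genes kept that order or departed from it. Ms4a4b, a surface protein of mature T cells, had 2461 CPM in members of cluster 0 and 212 CPM in members of cluster 5. Ifit3 had 404 CPM in cluster 0, 81.7 CPM in cluster 5 and 69.6 CPM in cluster 6, and Isg15 had 741 CPM in cluster 0, 1433 CPM in cluster 5 and 933 CPM in cluster 6. Iigp1 was highest among members in cluster 8, at 603 CPM, and lowest in cluster 6, at 97.0 CPM. Isg15 and Ifit3 chose the members, so a member low in one had to be high in another.

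The share of members was lower in the Lta-/- mouse. In the Lta-/- mouse 10.8% (9.51 to 12.2) of 2082 cells were members, and in the Foxp3eGFP mouse 19.7% (18.0 to 21.5) of 2062. The Lta-/- share was 0.548 times the Foxp3eGFP share, a log2 ratio of -0.87 (-1.11 to -0.63). Cells with 0 UMIs of the 5 genes made up 45.7% of Lta-/- cells and 25.02% of Foxp3eGFP cells. Cells at 6 to 9 UMIs were 5.96% and 12.6%, cells at 10 to 19 were 4.47% and 9.36%, and cells at 20 or more were 2.16% and 4.41%, so every step from 3 UMIs up was smaller in the Lta-/- mouse. Among cells without Mki67 and Top2a the share was 12.5% of 1799 Lta-/- cells and 23.8% of 1708 Foxp3eGFP cells. Each of the 5 genes was found in fewer Lta-/- cells, for example Ifit3 in 12.8% of Lta-/- cells and 24.6% of Foxp3eGFP cells, and Isg15 in 40.9% and 58.9%. Median depth was 5580 UMIs in Lta-/- cells and 5764 UMIs in Foxp3eGFP cells. With 1 mouse of each genotype, genotype, mouse and hashtag cannot be told apart.

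**Figure D4:**
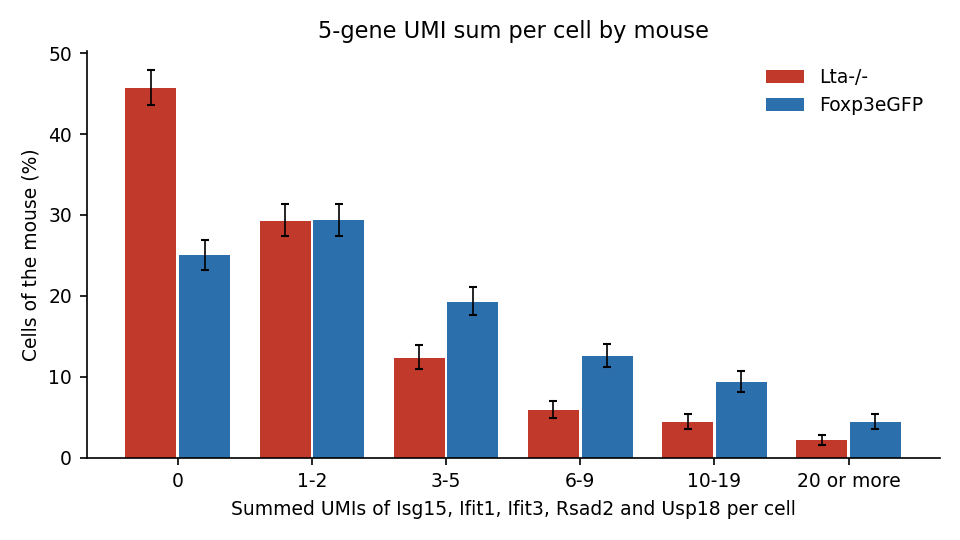
Share of the cells of each mouse (y axis, %) at each 5-gene UMI sum (x axis), Lta-/- in red and Foxp3eGFP in blue, with 95% Clopper-Pearson intervals. At 0 UMIs the Lta-/- mouse has 45.7% and the Foxp3eGFP mouse 25.02%, and at 6 to 9 UMIs they have 5.96% and 12.6%.

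The lower share was seen across states. All 8 clusters with at least 30 members had a lower member rate among their Lta-/- cells, from a log2 ratio of -1.27 in cluster 3 (7.69% of Lta-/- cells and 18.5% of Foxp3eGFP cells) to -0.19 in cluster 8 (22.2% and 25.4%). In cluster 0 it was 16.0% (12.2 to 20.5) and 23.7% (19.7 to 28.1), and in cluster 1 it was 11.4% (8.26 to 15.3) and 23.4% (18.7 to 28.5). Intervals of the mice overlapped in clusters 0, 5, 6 and 8. All clusters come from the same 2 mice, so their shared direction is not repeated evidence. With both mice given the same cluster makeup the shares were 10.98% and 19.7%. By gate transcript the rate was 17.2% in Lta-/- cells and 22.3% in Foxp3eGFP cells with both Foxp3 and Il2ra, 7.62% and 22.6% with Foxp3 alone, 12.4% and 21.5% with Il2ra alone, and 10.3% and 18.4% with neither. Intervals of the mice overlapped in the cells with both transcripts (11.8 to 23.7 and 16.8 to 28.5) and did not in those with Foxp3 alone (4.50 to 11.9 and 17.4 to 28.6). Whether the difference between mice differs among states was not tested.

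**Figure D5:**
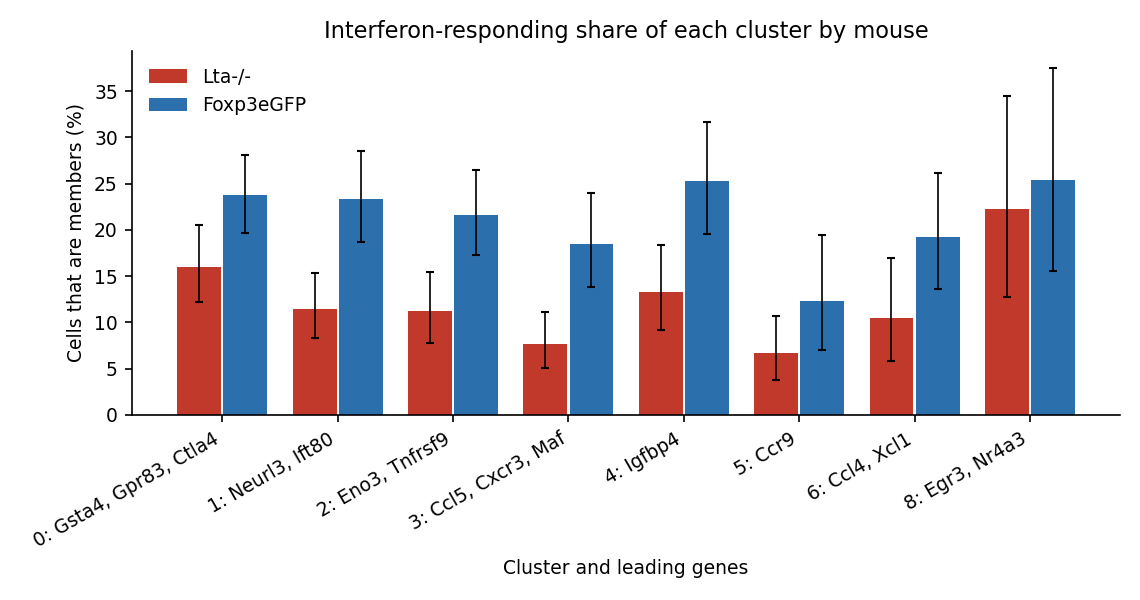
Share of each cluster's cells that are members (y axis, %) in the Lta-/- mouse (red) and the Foxp3eGFP mouse (blue), with 95% Clopper-Pearson intervals. The red bar is the lower in all 8 clusters shown, at 7.69% and 18.5% in cluster 3 and 22.2% and 25.4% in cluster 8.

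Among members themselves the response had nearly the same level in the 2 mice. The further interferon genes gave a log2 ratio, Lta-/- members over Foxp3eGFP members, of 0.02 (-0.00 to 0.04), and the 5 genes of the rule 0.02 (-0.05 to 0.08) at a median of 10 UMIs in each. The threshold holds the lower end of both groups at the same value, so this closeness is partly set by the rule. Iigp1 was at 0.02. The interferon gamma list was at -0.06 and MHC class I at 0.03. Single MHC class I genes went apart under that sum, with H2-Q7 at 0.74 (0.55 to 0.93) and H2-Q4 at -0.34 (-0.58 to -0.11). Between reference cells of the mice H2-Q7 was at 1.03 and H2-Q4 at -0.15. State lists differed slightly: Treg core genes were at -0.12 (-0.17 to -0.06), with Ikzf2 at -0.33, mature CD4 genes at 0.14 and agonist-signalled precursor genes at 0.29 (0.23 to 0.36). Between reference cells of the same mice, Treg core genes were at -0.15, with Ikzf2 at -0.07, mature CD4 genes at 0.22 and agonist-signalled precursor genes at -0.11. The Treg core and mature CD4 lists thus differed the same way outside the members.

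Single genes that differed between the members of the 2 mice were mostly low or held by few cells. With at least 50 UMIs over members, 2.23% of 6867 genes were 1.5-fold higher and 3.93% lower in Lta-/- members. Lta itself had 7.10 CPM in Lta-/- members and 46.5 CPM in Foxp3eGFP members (log2 -2.71), and 3.76 CPM and 28.0 CPM in reference cells of these mice. Within the Foxp3eGFP mouse 18.7% of members and 13.6% of reference cells had an Lta UMI. Penk, for proenkephalin, had 4.97 CPM in Lta-/- members and 52.9 CPM in Foxp3eGFP members, and Abca1, a cholesterol exporter, 9.94 CPM and 38.1 CPM; each was as far apart in reference cells, with log2 ratios of -3.28 and -1.78. Dnah8, on chromosome 17 like Lta, had 184 CPM and 69.3 CPM, and it too differed in reference cells (1.63). Ccl4, C1qa, Apoe, Cd74 and, in Foxp3eGFP members, Lyz2 had most or much of their UMIs in 1 cell.

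Some genes of other cell types were absent from members and others were not. The B cell genes Ms4a1, Ebf1 and Pax5, the dendritic genes Xcr1 and Clec9a and the plasmacytoid dendritic gene Siglech were at 0 UMIs in members. Other B cell genes were present, Cd74 with 326 UMIs and Ighm with 228, and the list summed to 271 CPM in Lta-/- members and 112 CPM in Foxp3eGFP members, against 176 CPM and 162 CPM in their reference cells; 115 UMIs of Cd74 lay in 1 Lta-/- member. Myeloid or dendritic genes summed to 245 CPM in Lta-/- members and 252 CPM in Foxp3eGFP members, against 134 CPM and 177 CPM in their reference cells. Cst3 and Lyz2 gave the most of these UMIs, 443 and 412 in members, and 350 of those of Lyz2 lay in 1 cell. Plasmacytoid dendritic genes summed to 599 CPM in Lta-/- members and 558 CPM in Foxp3eGFP members, against 329 CPM and 311 CPM in their reference cells. Bst2, which is also on an interferon list, gave 74.4% of the UMIs of this list in members. At least 2 UMIs of it were found in 71.2% of members and 42.0% of reference cells. Plasma cell genes summed to 53.2 CPM and 46.8 CPM, against 49.96 CPM and 1443 CPM. Innate-like T or NK genes were lower in members, for 6 of 8 genes, with Nkg7 at -1.93. At least 2 UMIs of the myeloid list were found in 13.6% of members and 16.4% of reference cells, and of the B cell list in 16.6% and 19.3%. Cells with 2 or more UMIs summed over the B cell, plasma cell, myeloid or dendritic, thymic epithelial and erythroid lists numbered 1994 of 4144. The plasmacytoid dendritic and innate-like lists took no part in this filter. Leaving these cells out left 366 members and 752 reference cells. The log2 ratio of the further interferon genes was then 1.32, against 1.34 with them.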

How the data were processed

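Hashtagged cells of 2 mice were sequenced in 1 capture on the 10x 3′ chemistry. The deposited matrix holds raw UMI counts per gene and hashtag for 4798 barcodes, written by Cell Ranger 6.0.1 per the file headers; mm10 and GRCm38 are the builds in the submitters' processing notes, and cell calling is not given in the sources used here. Barcodes with at least 500 genes, at most 10% mitochondrial UMIs, at least 80% of hashtag UMIs from 1 hashtag and at least 3000 UMIs were kept. That removed 160, 185 and 309 barcodes in turn. The 185 were cells with both hashtags; about as many doublets within a genotype would be expected to remain, and no doublet caller was run. No barcode was duplicated, and 0 columns of sample values were left unused.

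UMIs were summed over cells of a class, so depth per class, and not per cell, sets the precision. Genes with at least 100 UMIs over kept cells were compared, and a gene was called at a ratio of 1.5. With 1 mouse per genotype no test was run. Intervals at 95% are exact conditional binomial for ratios, Clopper-Pearson for shares and Poisson for levels, and cover counting error only; those for ratios were tested on simulated data. Clusters were made with scanpy 1.11.5 (2000 variable genes, 30 components, 15 neighbours, Leiden resolution 0.6, igraph 0.11.9) without the interferon and MHC class I lists, Foxp3 or Il2ra. Python 3.11.15, numpy 2.4.6, scipy 1.17.1, pandas 2.3.3, scikit-learn 1.9.0 and matplotlib 3.10.9 were used. Genes named by size are the 15 largest ratios each way that held in both mice at 50 CPM or more, and the 8 largest each way between the members of the 2 mice at 50 UMIs or more, without mitochondrial, ribosomal, sex-linked and V(D)J genes; list genes may also be named. The members and the 27 gene lists were chosen with earlier results of these data known, including the difference between the mice in interferon genes. Promoters are from RefSeq (GRCm38.p6), matched by symbol. Alternatives were the threshold, depth, hashtag share, reference, clustering, genes of the rule and the mice taken apart. Some genes counted in the lists are not reported by name here.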

Additional observations from a re-analysis of the deposited data

Results flagged for a closer look

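Cells outside the members also carried the 5 genes. Among cells with Mki67 or Top2a UMIs, which the rule leaves out, 173 of 637 (27.2%, 23.7 to 30.8) had 6 or more UMIs of the 5 genes, at a median of 10216 UMIs per cell. The share was 13.1% of 283 Lta-/- cells and 38.4% of 354 Foxp3eGFP cells. Among cells with both hashtags and at least 3000 UMIs the share was 33.1% (60 of 181), at a median of 10612 UMIs. Among cells with 1 hashtag and under 3000 UMIs it was 4.85% (15 of 309), at a median of 2353 UMIs. The share in kept cells without Mki67 and Top2a was 18.0%, at a median of 5399 UMIs. A sum of UMIs grows with depth, and the part of depth in these shares was not tested.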

How the results depend on the processing

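No ratio followed in this section changed sign under the 23 alternatives. With dividing members kept, the interval of Treg core genes held 0 (-0.029 to 0.029). Other ratios were not followed here, and some changed sign against reference cells without Mki67 and Top2a. Examples are Nusap1 (-6.21 and then 0.61) and the effector and recirculating Treg list (-0.18 and then 0.03). The counts of genes turned from 337 higher and 866 lower to 363 and 350 with dividing members kept. The log2 ratio of member shares, Lta-/- over Foxp3eGFP, ran from -1.07 to -0.80 over 14 alternatives, and that of the share in the cluster highest in Treg core genes, members over reference cells, from 0.57 to 1.097 over 15. That cluster is chosen anew in each clustering and need not be the mature Treg-like one: it has 172 cells at resolution 1.0, against 727, and with 20 components the value is 1.03 (0.14 to 1.92). Other interferon genes (1.34) came to 1.23 at a threshold of 4 UMIs, 1.52 at 10 UMIs, 1.42 thinned to 3000 UMIs, 1.42 from 5000 UMIs, 1.27 against reference cells without Mki67 and Top2a, 1.25 with dividing members kept, 1.32 without cells with 2 UMIs of other cell types, 1.36 in Lta-/- cells, 1.31 in Foxp3eGFP cells, 1.37 weighted by depth, 1.27 as a mean of per-cell CPM, 1.17 weighted by cluster, 1.51, 1.31 and 1.29 without Isg15, Ifit1 and Ifit3 in the sum, and 1.31 without the mixed cluster. Treg core genes (0.23) came to 0.12 thinned, 0.083 against reference cells without Mki67 and Top2a, 7.33e-05 with dividing members kept, 0.28 from 5000 UMIs, 0.18 in Foxp3eGFP cells, 0.14 as a mean of per-cell CPM, 0.0079 weighted by cluster and 0.20 without the mixed cluster. The Foxp3 share (0.48) came to 0.13 weighted by cluster, and the Il2ra share (0.53) to 0.24 in Foxp3eGFP cells. Genes higher (337) numbered 643 thinned, 511 in Lta-/- cells, 567 in Foxp3eGFP cells and 591 from 30 UMIs per gene. Genes lower (866) numbered 1474 thinned, 481 against reference cells without Mki67 and Top2a, 350 with dividing members kept, 1310 in Lta-/- cells, 529 weighted by cluster and 1489 from 30 UMIs per gene. The thinned alternative also chose the cells anew, with 319 members and 2034 reference cells. With the 632 members and 1468 reference cells kept and thinned, other interferon genes were at 1.26 and Treg core genes at 0.16. Fewer UMIs per gene enter the thinned and single-mouse counts by construction. The cause of the other moves was not tested. The mixed cluster was left out as a choice made after seeing the data. A clustering without the genes that differed 1.5-fold in members in each mouse was also added after seeing the data. It gave 1.07 (0.28 to 1.85) for the share in the cluster highest in Treg core genes. No paired analysis was possible because each genotype is 1 mouse and no result comes from a test.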
